A study of Mus musculus with 7 samples.

Results

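The 9 genes described here encode transcription factors and regulators of the paraxial mesoderm, the tissue on either side of the neural tube that is cut into somites. They were *Tbx6*, *Mesp1*, *Mesp2*, *Ripply2*, *Tcf15*, *Meox1*, *Meox2*, *Pax1* and *Uncx*, 9 of 21000 coding genes with a curated transcription start site (TSS). They were chosen by name for their role in somite formation and not from any value in the peak lists. Around each gene the deposited peaks were taken from 50 kb upstream to 50 kb downstream of the gene body on GRCm38, and *Mesp1* and *Mesp2*, which lie side by side on chromosome 7, were treated as 1 neighbourhood, which gave 8 neighbourhoods. These held 166 of the 210347 regions that the 7 peak lists gave across the genome.

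Chromatin accessibility was profiled by ATAC-seq, in which a transposase inserts sequencing adapters into open DNA, in cells sorted from the microdissected second heart field (SHF) region of mouse embryos at E9.5. The SHF is the population of cardiac progenitors behind the early heart tube. GFP+ cells (n = 2 libraries) and GFP- cells (n = 2) came from embryos of the *Hoxb1GFP* line, whose reporter labels the posterior part of the SHF. Tomato+ cells (n = 2) and Tomato- cells (n = 1) came from *Mef2c-Cre;RosatdT* embryos, in which Cre driven by a *Mef2c* enhancer of the anterior SHF labels those cells and all their descendants. The study's methods list the GFP allele as a *Hoxb1-* allele, so GFP+ and GFP- embryos both carried it and Tomato embryos, by their label, did not. How many copies they carried is not given in the sources used here. Line, allele and population cannot be told apart between GFP+ and Tomato+. Each library was made from pooled embryos. The sort-negative cells are whatever else the dissected region held, and the labels do not say which tissues that was. In bulk material, more cells with an open site and a more open site in each cell cannot be told apart.

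Somites form in sequence from the presomitic mesoderm. *Tbx6*, a T-box factor, commits cells to this tissue. *Mesp2*, a basic helix-loop-helix (bHLH) factor, sets the segment boundary downstream of Notch signalling and Tbx6, and *Ripply2* then ends the action of Tbx6 there. Its neighbour *Mesp1* encodes a related bHLH factor and is best known in the first mesoderm cells that form the heart. *Tcf15*, also named paraxis, keeps newly formed somites epithelial, and the homeobox factors *Meox1* and *Meox2* act in the somite and its derivatives. *Pax1* marks the sclerotome, which makes the vertebrae, and *Uncx* marks the posterior part of each somite. The SHF lies next to this tissue, and its progenitors are not known to form somites.

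A promoter was taken as the 1000 bp upstream to 100 bp downstream of a TSS, a peak in it was called present at a q-value (the p-value adjusted for false discoveries) of at most 0.01, which is a -log10 q of at least 2, and weaker deposited peaks, down to a p-value of 0.01, are given as such. A position is the place of a peak in its own library's list when that list is sorted by fold enrichment over the local background, with 1 at the top. The lists held 187914 to 291287 peaks, of which 64306 to 77746 passed the q-value limit, and 52340120 to 93074895 tags lay behind them per library. With groups of 2, 2, 2 and 1 libraries no exact permutation test could reach 0.05: the smallest two-sided p is 0.333 for 2 against 2 libraries and 0.0571 for 4 against 3. The lists hold no read counts over shared regions, so no count model across regions was fitted. Values are therefore described library by library, beside the share of all promoters or regions of the genome that meet the same rule. The peak caller header kept with Tomato+ replicate 6 carries a run name with the reporter YFP, which no label mentions. Without that library the promoters of *Ripply2* and *Meox2* were still the 2 called in every library, *Pax1* still had GFP+ above all others, and *Tcf15* had the remaining Tomato+ library above both GFP+ libraries. An open promoter is not the same as an expressed gene.

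Of the 9 promoters, 2 (*Ripply2* and *Meox2*) had a called peak in all 7 libraries, a rule met by 53.1% of all coding promoters. None of the 9 was without a called peak in every library, as 28.3% of coding promoters were. The other 7 lay in between: *Tcf15* was called in 5 libraries, *Tbx6* and *Pax1* in 3, *Mesp1* and *Mesp2* in 2, and *Meox1* and *Uncx* in 1. Across the genome, the coding promoters outside the 53.1% and the 28.3% were called in 1 to 6 libraries. Each single number of libraries from 1 to 6 accounted for 1.92% to 5.09%. Which members fell in between depended on the window: with 500 bp on either side of the TSS, *Mesp2* was called in 7 libraries and *Tbx6* in 0. Over the 12740 coding promoters with a deposited peak in all 7 libraries, the median of the median positions was 13096. The 4 members among them ranked lower: the median position was 16851 at *Ripply2*, 20993 at *Meox2*, 31368 at *Tcf15* and 124866 at *Pax1*, with 62.8%, 72.3%, 85.9% and 99.3% of those promoters above them. With 500 bp on either side it was 48371 at *Pax1*, and *Mesp2* (21168) and *Mesp1* (56841) also had a deposited peak in all 7.

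**Figure D1:**
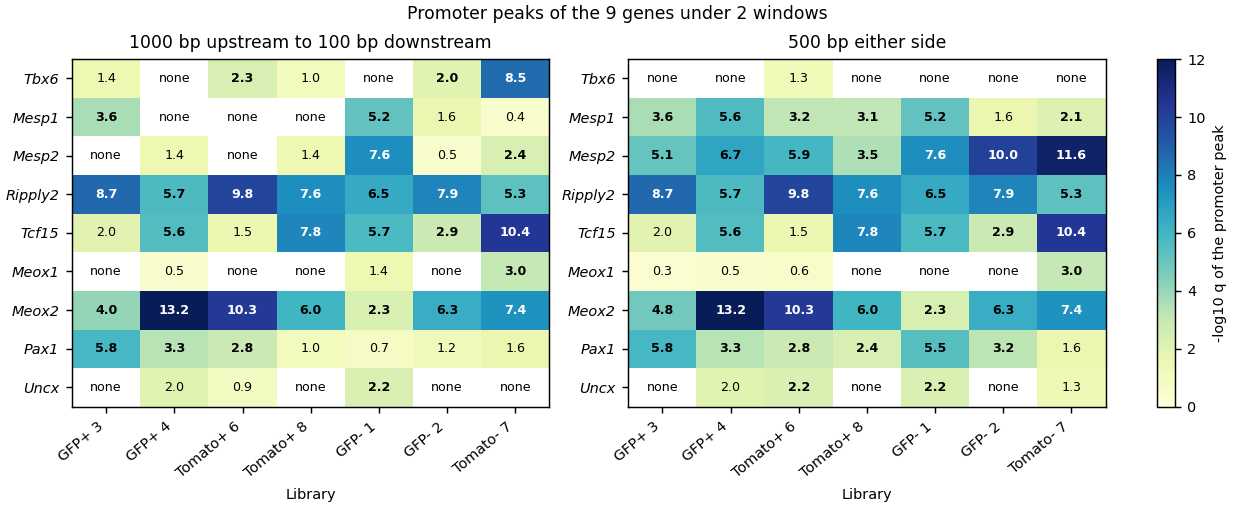
Strength of the promoter peak (-log10 q, colour and number) of each gene (rows) in each library (columns), for the promoter window used here (left) and for one of 500 bp on either side of the TSS (right). Bold numbers pass the q-value limit of 0.01, and "none" marks a window with no deposited peak. *Ripply2* and *Meox2* are filled in all 7 libraries under both windows, *Mesp1*, *Mesp2* and *Pax1* fill up under the second window, and *Tbx6* empties.

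Several of the accessible sites lay just inside the gene and not upstream of it. At *Mesp2* the summits of all 7 libraries fell 327 to 516 bp downstream of the TSS, and at *Mesp1* all 7 fell 170 to 518 bp downstream. At *Pax1* 6 of 7 summits lay downstream, with a median of 277 bp. By contrast the summits at *Tcf15* lay between 223 bp upstream and 74 bp downstream of the TSS, and the 5 at *Tbx6* lay 606 to 777 bp upstream. A promoter window that ends 100 bp after the TSS catches these 5' regions only by their edge. With 500 bp on either side of the TSS, 3 members were called in all 7 libraries (54.7% of coding promoters met this rule), since *Mesp2* joined *Ripply2* and *Meox2*, and *Mesp1* and *Pax1* were each called in 6. *Tbx6* went the other way, from 3 libraries to 0.

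**Figure D2:**
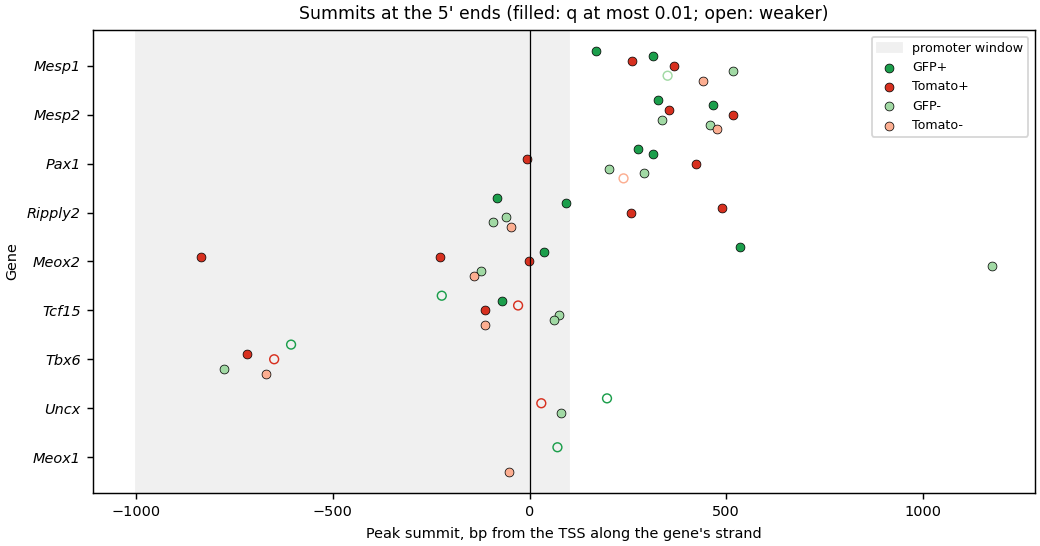
Distance in bp of each library's peak summit from the TSS (x axis, along the gene's strand) for the regions that touch the promoter window of each gene (y axis), coloured by group. Filled circles pass a q-value of 0.01 and open circles do not. The grey band is the promoter window, and all 7 summits of both *Mesp1* and *Mesp2* lie to the right of it.

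The *Mesp1* and *Mesp2* sites lie on matching pieces of the 2 genes. The 200 bases around the strongest summit were coding sequence throughout in both, from the exon that encodes the bHLH domain. They are shown because a peak on duplicated sequence can gather reads of either copy. Both are read 5′ to 3′ on the strand of the gene from GRCm38 (chr7:79793175-79793374, minus strand, for *Mesp1* and chr7:79811104-79811303, plus strand, for *Mesp2*), with the longest run shared by both in capitals.
Mesp1 5′ region: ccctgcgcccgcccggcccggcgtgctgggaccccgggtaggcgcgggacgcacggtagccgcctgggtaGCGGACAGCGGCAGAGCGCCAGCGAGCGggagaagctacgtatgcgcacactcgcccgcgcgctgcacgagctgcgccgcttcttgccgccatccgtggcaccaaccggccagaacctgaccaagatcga
Mesp2 5′ region: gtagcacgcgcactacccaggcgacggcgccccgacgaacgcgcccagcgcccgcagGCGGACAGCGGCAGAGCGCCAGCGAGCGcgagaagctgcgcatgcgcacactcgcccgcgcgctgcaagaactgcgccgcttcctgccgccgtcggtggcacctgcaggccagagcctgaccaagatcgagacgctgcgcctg
The shared run was 28 bases long, shorter than the tags of 49 bases that the peak caller header kept with Tomato+ replicate 6 records. When the windows were aligned on it without gaps, 133 of 187 bases (71.1%) were identical. The median 31-base word at either summit occurred once in the genome.

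The *Mesp2* 5′ region (chr7:79810796-79811568) was called in all 7 libraries. Its -log10 q was 5.08 and 6.69 in the GFP+ libraries, 5.90 and 3.47 in the Tomato+ libraries, 7.57 and 10 in the GFP- libraries and 11.6 in the Tomato- library. Its positions were 27868 and 23175 in GFP+, 21168 and 40892 in Tomato+, 19647 and 14855 in GFP-, and 17175 in Tomato-. All 3 sort-negative libraries therefore placed it above all 4 sorted-positive libraries, the only member promoter with that order under the window of 500 bp on either side. Of the 13241 coding promoters with a peak in every library under that window, 2.33% had the same order. Ranked by -log10 q or by pileup the order was the same, but as a percent of the list it was lost, since GFP- replicate 1 (10.5%) then stood below GFP+ replicate 3 (9.57%) and Tomato+ replicate 6 (8.53%). Under the window that ends 100 bp after the TSS no member had it.

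The *Mesp1* 5′ region (chr7:79792808-79793572) was weaker and was called in 6 libraries. The -log10 q was 3.63 and 5.63 in GFP+, 3.18 and 3.15 in Tomato+, 5.17 and 1.57 in GFP- and 2.13 in Tomato-. The GFP+ positions (47750 and 35260) stood above those in Tomato+ (58197 and 56841), but the GFP- libraries spanned both, at 33167 and 138701. Under the window of 500 bp on either side, *Mesp1* and *Pax1* were the 2 members with both GFP+ above both Tomato+ libraries, an order that 27.3% of coding promoters showed.

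*Ripply2* had the steadiest promoter of the set. Its -log10 q was 8.68 and 5.68 in GFP+, 9.81 and 7.56 in Tomato+, 6.45 and 7.85 in GFP-, and 5.30 in Tomato-. The positions ran from 11208 (Tomato+ replicate 6) to 25881 (the Tomato- library), with fold enrichments of 4.10 to 6.31. The GFP+, Tomato+ and GFP- libraries overlapped, and the single Tomato- library was lowest. The far stronger site in the neighbourhood belonged to the next gene: the promoter of *Cyb5r4*, a cytochrome b5 reductase gene, 6.5 kb from the *Ripply2* TSS, had positions of 550 to 3668.

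*Meox2* was also called in every library. Its promoter had a -log10 q of 4.04 and 13.2 in GFP+, 10.3 and 5.99 in Tomato+, 2.33 and 6.34 in GFP-, and 7.36 in Tomato-. Positions were 27885 and 10399 in GFP+, 9981 and 22051 in Tomato+, 44719 and 18541 in GFP-, and 20993 in Tomato-. The 2 libraries of each replicated population differed from each other by more than 2-fold in position, and no group stood apart. The called region over the *Meox2* start (chr12:37107832-37109773) was 1942 bp long, the longest of the member promoters, and almost nothing else in its neighbourhood was called.

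*Tcf15* had a deposited peak in all 7 libraries, but it missed the q-value limit in GFP+ replicate 3 (-log10 q 1.96) and Tomato+ replicate 6 (1.53). The other values were 5.56 in GFP+ replicate 4, 7.81 in Tomato+ replicate 8, 5.72 and 2.86 in GFP-, and 10.4 in Tomato-. The positions were 116069 and 31368 in GFP+, 127932 and 25378 in Tomato+, 29110 and 66097 in GFP-, and 25077 in Tomato-. The spread within GFP+ and within Tomato+ was thus as wide as any difference between groups. The 2 libraries below the limit were those with the fewest tags, 59435263 and 52340120, and the Tomato- library, with the strongest peak, had the most, 93074895. The part of depth in this was not tested.

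At *Pax1* the positions of GFP+ and Tomato+ did not overlap under the main window, and it was the 1 member of 4 with a peak in all 7 libraries for which this held. Its -log10 q was 5.81 and 3.30 in GFP+, 2.83 and 1.04 in Tomato+, 0.74 and 1.18 in GFP-, and 1.56 in Tomato-. The positions were 28162 and 48371 in GFP+, 57493 and 160798 in Tomato+, 154544 and 147843 in GFP-, and 124866 in Tomato-. Both GFP+ libraries stood above both Tomato+ libraries, as did 27% of coding promoters with a peak in all 7 libraries, and above all 5 other libraries, as did 8.89%. The latter order was looked for after the *Pax1* values were seen. The margin was small on other scales: the fold enrichment of GFP+ replicate 4 (3.26) was below that of Tomato+ replicate 6 (3.47), and as a percent of lists of different length the same peaks were level at 23.17% and 23.18%. The opposite order, Tomato+ above GFP+, held for none of the 4 (10% of coding promoters), and neither did sorted-positive above sort-negative (2.71%) or the reverse (2.4%).

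That order of the libraries did not extend to the whole *Pax1* 5′ region (chr2:147364937-147365596), most of which lies beyond the window. There GFP- replicate 1 (position 28065, -log10 q 5.48) ranked with the GFP+ libraries (28162 and 48371), GFP- replicate 2 was at 47581, the Tomato+ libraries were at 57493 and 80781, and the Tomato- library was at 135919. With 500 bp on either side of the TSS no member had GFP+ above all 5 other libraries, against 9.02% of coding promoters. The 200 bases around its strongest summit, read on the plus strand (chr2:147365171-147365370), held 79.5% G and C, and are shown with the 136 coding bases, which end in a splice donor, in capitals.
Pax1 5′ region: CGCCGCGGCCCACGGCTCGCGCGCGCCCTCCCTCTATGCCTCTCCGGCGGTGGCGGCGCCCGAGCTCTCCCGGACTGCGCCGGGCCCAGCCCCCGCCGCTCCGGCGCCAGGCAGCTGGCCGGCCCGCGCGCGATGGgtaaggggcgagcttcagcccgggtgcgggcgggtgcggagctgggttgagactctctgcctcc

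The 3 remaining promoters were called in few libraries. *Tbx6* had a called peak in Tomato+ replicate 6 (-log10 q 2.35), GFP- replicate 2 (2.0) and the Tomato- library (8.54). It had weaker peaks in GFP+ replicate 3 (1.43) and Tomato+ replicate 8 (0.99), and no deposited peak in GFP+ replicate 4 or GFP- replicate 1. The Tomato- position was 43738 and the others were 152085 to 199866, so 1 library stood apart. It was also the library with the most tags, 93074895, and the part of depth was not tested. Deposited peaks of this neighbourhood had the highest local background, with medians of 1.68 to 2.52 times the genome-wide background per library, against 1 to 1.60 in the other 7 neighbourhoods. In such a setting a pileup can be high while the fold stays low: 42 overlapping tags gave a 3.29-fold enrichment at *Tbx6* in the Tomato- library, where 35 gave 4.24-fold at *Tcf15*.

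The *Tbx6* site is shown for its pair of matches to the core of the binding site of RBPJ, the DNA-binding partner of Notch (TGGGAA on either strand, in capitals), on the plus strand at chr7:126780712-126780911.
Tbx6 upstream site: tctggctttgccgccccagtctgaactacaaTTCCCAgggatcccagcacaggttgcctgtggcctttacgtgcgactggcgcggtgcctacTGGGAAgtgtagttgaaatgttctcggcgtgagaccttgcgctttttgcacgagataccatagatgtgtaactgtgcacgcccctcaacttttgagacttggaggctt
These letters occurred at least once in 14.5% of the 18836 windows of this length at promoter regions of the genome. The share of windows with a pair was not counted, and a match is not a shown binding site. A further site, 1.3 kb upstream of the *Tbx6* TSS in an exon of the neighbouring *Ypel3*, was called in 4 libraries (GFP+ replicate 4, Tomato+ replicate 8, GFP- replicate 1 and Tomato-) with -log10 q of 2.3, 6.1, 2.6 and 6.0.

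At *Meox1* the promoter was called only in the Tomato- library (-log10 q 3.0), with weaker peaks in GFP+ replicate 4 (0.47) and GFP- replicate 1 (1.44) and none in the other 4 libraries. The Tomato- library was the one with the most tags, and the part of depth was not tested here either. At *Uncx* the promoter was called only in GFP- replicate 1 (2.22), with weaker peaks in GFP+ replicate 4 (1.99) and Tomato+ replicate 6 (0.85) and none in the other 4. High CpG content was found at promoters called in many and in few libraries alike. The observed over expected CpG ratio was 0.771 at *Uncx*, 0.781 at *Ripply2* and 0.797 at *Tcf15*, 0.351 at *Meox2*, and 0.173 to 0.395 at *Mesp2*, *Mesp1*, *Meox1*, *Pax1* and *Tbx6*, against a median of 0.442 over all coding promoter windows.

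Outside promoters, the 8 neighbourhoods held 137 distal regions, defined as merged peaks that touch no promoter window of any gene. Of these 93 were intergenic, 32 intronic and 12 exonic. In most cases they were called in 1 library alone: 94 of 137 (68.6%), against 70.3% of the 191511 distal regions of the genome. Called in at least 2 libraries were 43 (31.4%), against 29.7%, and in all 7 libraries 5 (3.65%), against 6.46%.

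**Figure D3:**
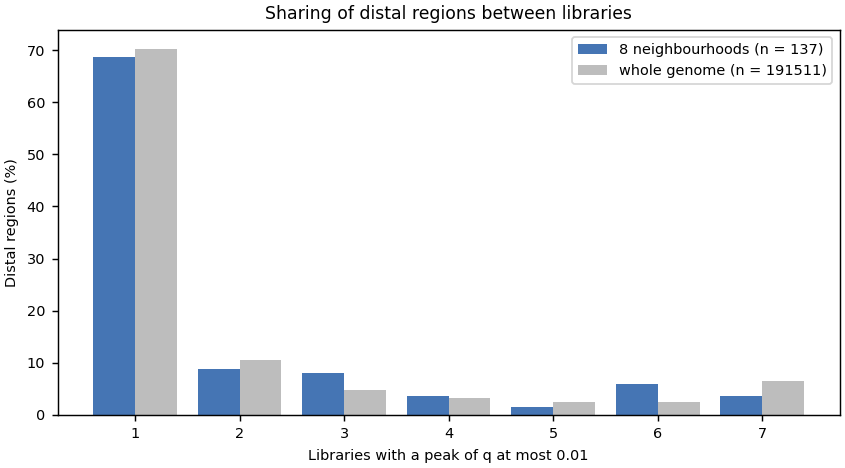
Percent of distal regions (y axis) by the number of libraries in which they had a peak with a q-value of at most 0.01 (x axis), for the 8 neighbourhoods (blue, 137 regions) and the whole genome (grey, 191511 regions). Regions of 1 library make up 68.6% and 70.3% of the sets, and regions of all 7 make up 3.65% and 6.46%.

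The neighbourhoods differed widely. Per 100 kb there were 28.8 distal regions around *Uncx*, 25.5 around *Tcf15* and 24.8 around *Meox1*, but 7.07 around *Pax1*, 2.86 around *Ripply2* and 1.17 around *Meox2*, with *Mesp1* and *Mesp2* (19.8) and *Tbx6* (13.45) between. Over all coding genes the median was 10.8. *Meox1*, whose promoter was not called in most libraries, thus had 29 distal regions, of which 23 were called in 1 library. *Meox2*, whose promoter was called in all, had 2, both called in 1 library.

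**Figure D4:**
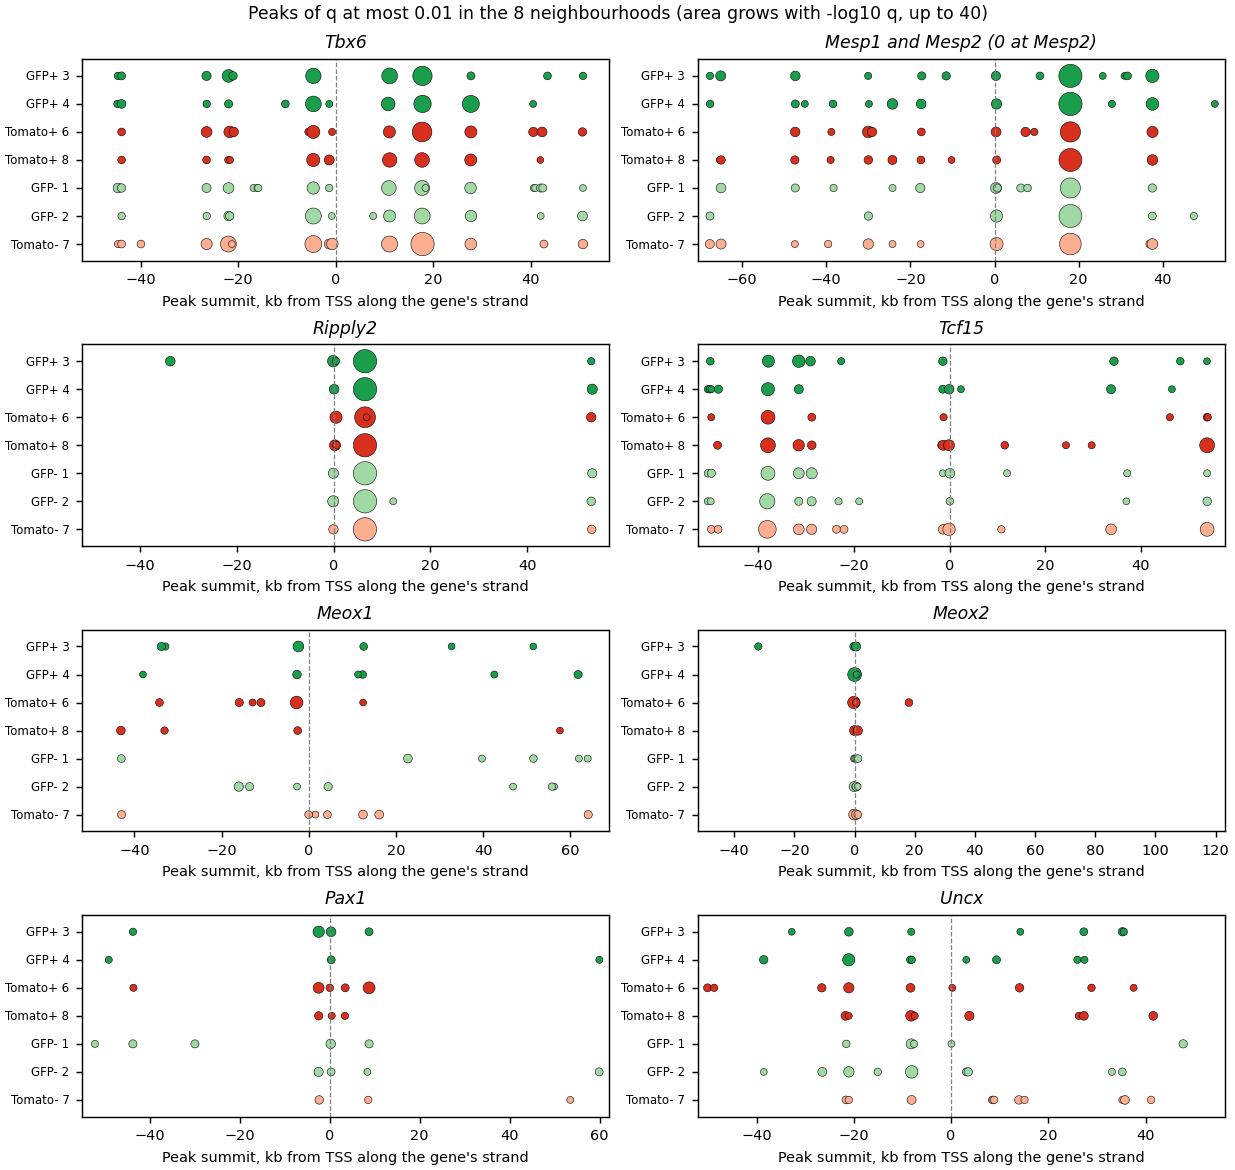
Called peaks of the 8 neighbourhoods by the distance of their summit from the member's TSS in kb (x axis, along the gene's strand, 0 at the *Mesp2* TSS for the pair) in each library (y axis, coloured by group). The area of a circle grows with -log10 q. Columns of circles are sites shared between libraries, such as the *Cyb5r4* promoter 6.5 kb from *Ripply2* and the repeated sequence 18 kb from *Mesp2*, and *Meox2* has almost none away from its start.

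No distal region of the set met a rule for being particular to a population, and few regions of the genome did. None was called in both GFP+ libraries with no deposited peak in either Tomato+ library (0.553% of distal regions of the genome), and none in the reverse (0.425%). None was called in all 4 sorted-positive and absent from all 3 sort-negative libraries (0.0157%), or the reverse (0.0245%). Leaving out 1 library loosened these rules. Without GFP+ replicate 3 or 4 there were 12 and 11 regions of GFP+ and not Tomato+. Without Tomato+ replicate 6 or 8 there were 6 and 11 of Tomato+ and not GFP+. Each of these rested on the 1 remaining library of its population, and the sort-negative libraries were not part of this rule.

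Of the 137 regions, 17 had a deposited peak in all 7 libraries, and for these the positions could be compared in full. Both GFP+ libraries stood above both Tomato+ libraries at 2 of 17 (17.1% of the 20792 such regions of the genome), and the reverse held at 1 (21.7%). All 4 sorted-positive stood above all 3 sort-negative libraries at 2 of 17 (2.54%), and the reverse at none (3.13%). These regions are named below because of their order and so were chosen after their values were seen.

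One of the last kind lay 2.8 kb upstream of *Meox1*, between genes (chr11:101896651-101897401). Its -log10 q was 7.38 and 4.18 in GFP+, 10.8 and 3.12 in Tomato+, 1.16 and 2.13 in GFP-, and 1.41 in Tomato-. The GFP+ positions were 21625 and 45528 and the Tomato+ positions 14499 and 51452, against 134415, 92431 and 131487 in the 3 sort-negative libraries. The sorted-positive libraries of both lines were thus higher than every sort-negative one, and the order was the same when peaks were ranked by -log10 q, by pileup or by percent of the list. The *Meox1* promoter itself had no called peak in any sorted-positive library. Its 200 bases on the minus strand (chr11:101897056-101897255) held none of the 6 motifs searched, so no base is in capitals.
Meox1 2.8 kb upstream: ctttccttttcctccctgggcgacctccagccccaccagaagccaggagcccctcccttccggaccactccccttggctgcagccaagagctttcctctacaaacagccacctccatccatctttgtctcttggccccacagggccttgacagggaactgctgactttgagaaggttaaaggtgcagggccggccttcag

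Another *Meox1* site, in an intron 12.4 kb downstream of the TSS (chr11:101881672-101882081), was called in 4 libraries. Its positions were 49119 and 58486 in GFP+, 93106 and 129537 in Tomato+, 112576 and 97773 in GFP-, and 41450 in Tomato-. Here GFP+ stood above GFP- in the *Hoxb1GFP* line while Tomato- stood above Tomato+ in the *Mef2c-Cre;RosatdT* line. It is shown on the minus strand (chr11:101881825-101882024) with 1 match to the RBPJ core in capitals.
Meox1 12.4 kb downstream: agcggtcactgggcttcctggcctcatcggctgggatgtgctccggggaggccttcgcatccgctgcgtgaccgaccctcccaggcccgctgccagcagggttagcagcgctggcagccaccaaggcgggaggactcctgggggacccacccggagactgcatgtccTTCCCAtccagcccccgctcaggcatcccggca

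The strongest distal region of all 8 neighbourhoods was not unique sequence. It lay 18 kb downstream of the *Mesp2* TSS in an intron of *Anpep*, an aminopeptidase gene (chr7:79828518-79829097), with positions of 2633 and 2346 in GFP+, 2011 and 3019 in Tomato+, 4916 and 3258 in GFP-, and 5782 in Tomato-. This was the other region with all sorted-positive above all sort-negative libraries, but the order was lost when peaks were ranked by -log10 q, by pileup or by percent of the list. The median 31-base word at its summit occurred 15 times in the genome. The window around it (chr7:79828664-79828863, plus strand) is a tandem repeat with a period of 54 bases, 95.9% identical from one unit to the next, and the first unit is in capitals.
Mesp2 18 kb downstream: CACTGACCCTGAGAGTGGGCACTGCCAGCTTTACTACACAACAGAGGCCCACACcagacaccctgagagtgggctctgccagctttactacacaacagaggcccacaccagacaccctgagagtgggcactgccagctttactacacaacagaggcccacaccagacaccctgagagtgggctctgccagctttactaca
The part of the repeat in its height was not tested. Without regions of repeated sequence 126 distal regions remained, and 3 of them were called in all 7 libraries.

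Those 3 lay around *Tbx6* and *Uncx*. The site 27.7 kb downstream of the *Tbx6* TSS, between genes (chr7:126808896-126809402), had a -log10 q of 3.47 and 20.8 in GFP+, 9.65 and 9.57 in Tomato+, 8.72 and 8.47 in GFP-, and 9.08 in Tomato-. The site 26.5 kb upstream of *Tbx6* (chr7:126754856-126755313) had 5.04 and 2.85 in GFP+, 7.48 and 3.08 in Tomato+, 4.90 and 2.72 in GFP-, and 7.93 in Tomato-. Neither sorted by population, and both sit among other genes: 7 other coding genes share the *Tbx6* neighbourhood, and 13 of its 28 regions touched their promoters. The promoter of *Aldoa*, a glycolysis enzyme gene 17.8 kb away, and that of the phosphatase subunit gene *Ppp4c*, 11.1 kb away, were called in all 7 libraries, with median positions of 13223 and 16959.

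The third lay 8.1 kb upstream of *Uncx* in an intron of the noncoding gene *4930500L23Rik* (chr5:139535433-139536090). Its -log10 q was 2.43 and 3.11 in GFP+, 4.35 and 7.12 in Tomato+, 6.27 and 10.4 in GFP-, and 4.62 in Tomato-. The positions were 67365 and 48290 in GFP+, 53480 and 27339 in Tomato+, 25305 and 16425 in GFP-, and 43823 in Tomato-. Both GFP- libraries ranked it above both GFP+ libraries, and the Tomato- library lay between the Tomato+ libraries. The *Uncx* promoter, as given above, was called in 1 library.

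Around *Tcf15*, 8 of 27 distal regions were called in at least 2 libraries and none in all 7. The region with the lowest median position, 53.8 kb downstream (chr2:152197242-152197673), was strongest in Tomato+ replicate 8 (position 8877, -log10 q 15.5) and Tomato- (13359, 13.2), weaker in Tomato+ replicate 6 (34074), GFP- replicates 1 and 2 (44719 and 26355) and GFP+ replicate 3 (64154), and absent from GFP+ replicate 4. A site 1.3 kb upstream of the TSS was called in 6 libraries, all but GFP- replicate 2. The region 49.8 kb upstream, in a coding exon of the neighbouring gene *Scrt2*, had both GFP+ (70219 and 81793) above both Tomato+ libraries (82635 and 204848), but the middle pair, 81793 and 82635, was almost level, and the order was lost when positions were taken as percent of the list.

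In the *Mesp1* and *Mesp2* neighbourhood, the region 12.9 kb downstream of the *Mesp1* TSS (chr7:79780630-79780938), in an intron of *Wdr93*, was the region with both Tomato+ (16051 and 32491) above both GFP+ libraries (50275 and 64020). The GFP- libraries were at 75994 and 34465 and the Tomato- library was at 24995. Its order was the same by -log10 q, by pileup and by percent of the list.

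At *Pax1* the leading distal region lay 8.7 kb downstream, over a coding exon of the gene itself (chr2:147373312-147373906), with positions of 30383 and 95823 in GFP+, 12479 and 90644 in Tomato+, 30116 and 49301 in GFP-, and 44658 in Tomato-. The 2 libraries within GFP+ and within Tomato+ differed more than the groups did. The region 2.5 kb upstream of the *Pax1* TSS, called in 5 libraries, touched the promoter window of the noncoding gene *AI646519*. It also lay inside the annotated *Pax1* gene body (chr2:147361930-147375049), which starts before the curated TSS used here.

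Around *Ripply2* the distal region in most libraries lay 53.5 kb downstream in an intron of *Cyb5r4* (chr9:87068622-87069170), called in 6 libraries at positions of 19486 to 37933, with a weaker peak at 59508 in Tomato+ replicate 8 (-log10 q 1.76). By the lowest median position the leading regions of *Ripply2* (33.8 kb upstream, position 19704 in GFP+ replicate 3), *Meox1* (22.7 kb downstream, 28413 in GFP- replicate 1) and *Meox2* (18.1 kb downstream, 34074 in Tomato+ replicate 6) had a peak in that library alone. That of *Uncx*, 27.3 kb downstream, had called peaks in 2 libraries, and its 31-base words occurred 22 times in the genome.

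**Figure D5:**
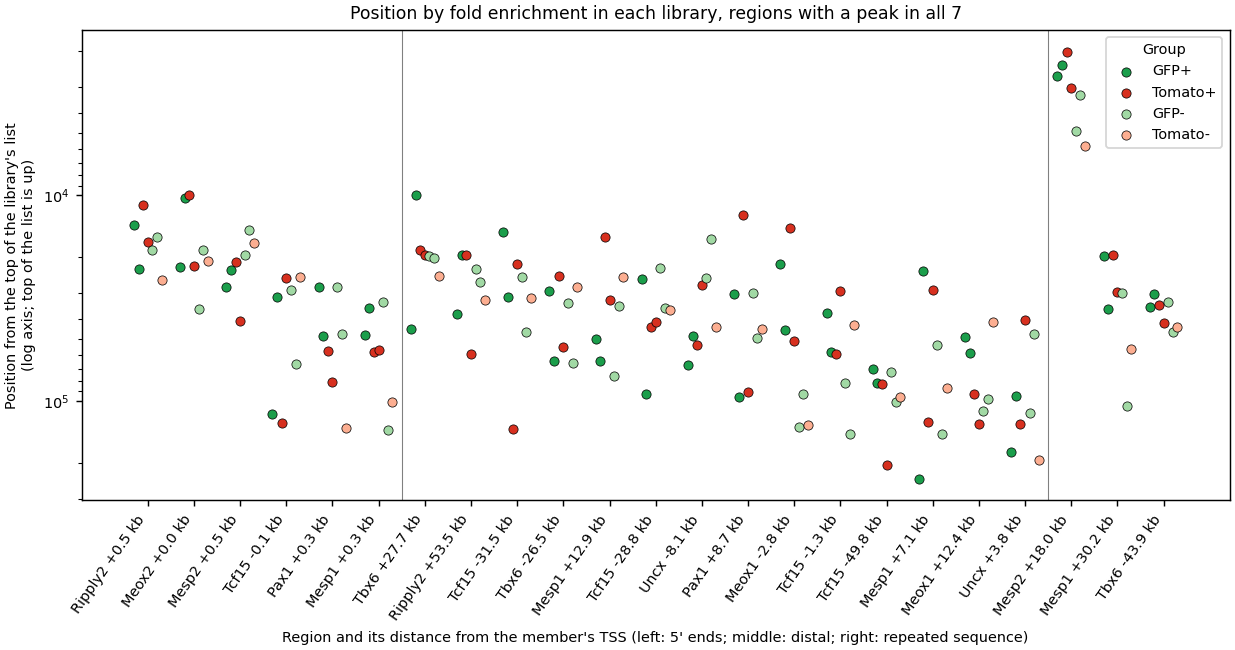
Position of each region in each library's list by fold enrichment (y axis, log scale, top of the list upward), coloured by group, for regions with a peak in all 7 libraries (x axis, named by the nearest member and the distance of the summit from its TSS). Regions at the 5′ ends stand on the left, single-copy distal regions in the middle and repeated sequence on the right. At the *Meox1* region 2.8 kb upstream all 4 sorted-positive libraries (14499 to 51452) lie above all 3 sort-negative ones (92431 to 134415). The repeated sequence 18 kb from *Mesp2* is at 2011 to 5782.

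Motifs of 6 to 8 letters were searched in the 200 bases around each strongest summit, on both strands, without regard to overlaps between motifs. The T-box site AGGTGT was found in 12 of 137 distal regions (8.76%, against 12.3% of all distal regions), the RBPJ core TGGGAA in 31 (22.6%, against 18.03%), the HOX-PBX site TGATNNAT in 2 (1.46%, against 6.77%), the homeobox core TAATTA in 3 (2.19%, against 2.28%), the TEAD site GGAATG in 12 (8.76%, against 11.5%) and the E-box CANNTG in 96 (70.1%, against 68.0%). Among the 43 regions called in at least 2 libraries the HOX-PBX letters were in 0, against 7.51% of such regions of the genome. The RBPJ core was in 3 of these 43 (6.98%), against 15.8%, so its higher share among all 137 regions did not hold there. The member regions were richer in G and C, with a median of 56% against 52.5%, and 59.5% against 53.5% for those in at least 2 libraries. The part of base composition in the motif shares was not tested.

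The promoters of 28 other genes of the same pathway were read in the same way. Of 13 genes of the presomitic mesoderm and the segmentation clock, 3 were called in all 7 libraries: *Lfng*, a Notch-modifying glycosyltransferase, *Nrarp*, a Notch target, and *Tbx18*, which marks the anterior part of the somite and also cardiac progenitors. A further 6 were called in 1 to 6 libraries, and 4 (*Hes7*, *Cer1*, *Ripply1* and *Cdx2*) in none. Of 15 genes of the somite and its parts, 9 were called in all 7 and the other 6 in 1 to 6, among them *Pax9*, the partner of *Pax1* in the sclerotome, in all 7, and *Myf5*, the first muscle determination gene, in 1. The share of all coding promoters called in all 7 was 53.1%, as given above.

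A peak of any strength was present in all 7 libraries at 18 of the 28 promoters, and 3 of these had GFP+ above Tomato+ (*Dll1*, *Nkx3-2* and *Nrarp*; 27% of coding promoters), 2 the opposite (*Wnt3a* and *Pax3*; 10%), 2 sorted-positive above sort-negative (2.71%) and 0 the reverse (2.4%). *Nrarp* resembled *Pax1* under the main window in that both GFP+ libraries stood above the other 5 libraries, whose order differed between the genes. Its positions were 10232 and 14784 in GFP+, 41149 and 39718 in Tomato+, 18416 and 20084 in GFP-, and 25369 in Tomato-. *Nkx3-2*, a sclerotome factor, also had GFP+ above the other 5 libraries, at 37389 and 27062 against 43141 to 87772, and these were the 2 of 18 with that order (8.89% of coding promoters). *Wnt3a*, a signal that maintains the presomitic mesoderm, had positions of 142709 and 126460 in Tomato+ against 248522 and 166291 in GFP+. *Pax3*, a factor of the dorsal somite, had 44573 and 24845 in Tomato+ against 182186 and 88637 in GFP+. The GFP- libraries were at 35297 and 182073 for *Pax3*, the first of them between the Tomato+ libraries, and Tomato- was at 69084. *Pax7* and *Epha4* had all sorted-positive above all sort-negative libraries, the first at 29383 to 91557 against 123546 to 149143 and the second at 12563 to 16673 against 16878 to 34962. At *Epha4* the nearest positions, 16673 and 16878, were almost level. Its -log10 q was highest in Tomato- (16.9), against 12.3 to 14.4 in the sorted-positive libraries.

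As a check of the dissected tissue, promoters of marker genes were read too. Of 10 SHF markers 3 were called in all 7 libraries (*Isl1*, *Fgf10* and *Mef2c*, with median positions of 9613, 16101 and 14029) and the other 7 in 1 to 6. *Fgf10*, a marker of the anterior SHF, stood higher in GFP+ (7445 and 14903) than in Tomato+ (22489 and 17816), and so did *Isl1* (5914 and 9613 against 31127 and 11715). Both GFP- libraries also stood above both Tomato+ libraries, at 16101 and 14788 for *Fgf10* and 5895 and 6612 for *Isl1*. The Tomato- library was at 20009 and 10222. *Foxf1*, a marker of the posterior SHF, stood higher in Tomato+ (26607 and 34922) than in GFP+ (74920 and 119951). At *Hoxb1* itself the GFP+ positions (36246 and 87565) overlapped those in the other sorts (GFP- 44646 and 35343, Tomato+ 195857 and 41449, Tomato- 41499). The order at *Fgf10* and *Foxf1* thus ran opposite to the parts of the SHF that these genes mark, and the reason was not tested. Of coding promoters with a peak in all 7 libraries, 27% had GFP+ above Tomato+ and 10% the reverse. Positions at *Mef2c* overlapped (9459 and 13479 in GFP+, 5658 and 16014 in Tomato+), with -log10 q of 13.9 and 11.4 against 61.6 and 19.3. *Tbx5*, a posterior marker, had a weak peak in GFP+ replicate 3 (-log10 q 1.53) and none in GFP+ replicate 4, Tomato+ or Tomato-. Its only called peak was in GFP- replicate 2, at position 46949. The weaker peak in GFP- replicate 1 (position 74489) also stood above that in GFP+ replicate 3 (position 120501). Of the 6 paraxial mesoderm markers, 5 of which are members, none was called in all 7, but this list does not hold *Ripply2* and *Meox2*, the 2 members that were. The other lists gave calls in all 7 libraries for 1 of 4 cardiomyocyte genes (*Actn2*), 0 of 3 neural crest, 0 of 3 endoderm, 1 of 3 endothelial (*Kdr*), 0 of 3 blood and 2 of 3 neural tube genes (*Sox1* and *Pax6*). The cardiomyocyte genes *Myh6* and *Myl7* and the blood genes *Gata1* and *Klf1* were called in none. Promoters of marker genes of several tissues were thus called in every library, as were 53.1% of all coding promoters. Such calls do not tell which tissues the cells came from, and the share of each tissue was not measured here.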

How the data were processed

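ATAC-seq peak lists of 7 libraries from E9.5 embryos were used as deposited. The authors aligned reads to GRCm38 (mm10), filtered them with SAMtools and called narrow peaks in each library on its own. The submitters' processing notes name MACS2 2.1.1, while the header kept with Tomato+ replicate 6 names 2.1.0.20150731, a p-value limit of 0.01, no control library, and tags shifted by 37 bp and extended to 73 bp, which can displace a summit. The pileup column that the authors deposited counts overlapping tags at a summit, a coverage signal that grows with depth. Their -log10 columns for the p-value and the q-value, and fold enrichment, the authors' ratio of pileup plus 1 to local background plus 1, are computed by the peak caller in each library. Tags per library (52340120 to 93074895) were worked out from the lowest background with the header's settings.

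Peaks of q at most 0.01 of all libraries that shared at least 1 bp were merged into regions (Python 3 with numpy and pandas, tested on simulated intervals). TSSs, exons and sequences were taken from the RefSeq annotation and genome of GRCm38.p6. Copies of sequence were counted as the median number of genome matches of 31-base words within 50 bp of a summit. Named distal regions were the region with the lowest median position in each neighbourhood and any region particular to a population, beside those said to be chosen after their values were seen. The genes, lists, motifs and rules were chosen with earlier results of these data known. No test between groups was run. Replicates are separate libraries of pooled embryos, and the intervals a count would give were not computed because the lists hold no read counts over shared regions.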

Additional observations from a re-analysis of the deposited data

Results flagged for a closer look

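The region in a *Meox1* intron 12.4 kb downstream of the TSS was singled out because the sorted-positive and sort-negative cells of the 2 lines moved in opposite directions at it. In the *Hoxb1GFP* line the mean GFP+ position was 53803 and the mean GFP- position 105175, a difference of -51372 (GFP+ minus GFP-), with both GFP+ libraries above both GFP- libraries. In the *Mef2c-Cre;RosatdT* line the mean Tomato+ position was 111322 and the Tomato- position 41450, with both Tomato+ libraries below the single Tomato- library. The difference between the lines was not tested. It was the only such case among the 4 member promoters and 17 distal regions with a peak in all 7 libraries. Groups of 2 or 1 libraries are too small to look for single outlying libraries.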

How the results depend on the processing

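The number of member promoters called in all 7 libraries, 2, became 1 at a q-value of at most 0.0001 and 4 with all deposited peaks. The 137 distal regions became 37 and 536 under those limits, and 72 and 251 with neighbourhoods of 25 and 100 kb. Distal regions called in all 7 libraries, 5, became 1 and 17 under those limits, 3 and 10 with those neighbourhoods and 3 in single-copy sequence. Regions of GFP+ and not Tomato+, 0, became 9 with all deposited peaks, 1 with 100 kb and 1 when absence meant no called peak. Those of Tomato+ and not GFP+, 0, became 6 with all deposited peaks and 1 when absence meant no called peak. With promoters of 500 bp on either side, GFP+ above Tomato+ rose from 1 to 2 members, sort-negative above sorted-positive from 0 to 1, and GFP+ above all other libraries, an order added after seeing the data, fell from 1 to 0. Ranking by pileup gave 1 member with sorted-positive above sort-negative, where the main value was 0. An overlap of 50% of the shorter interval kept every count within 1.5 times, and ranking by -log10 q or percent of the list did so for the promoter counts of the main window. With 500 bp on either side, ranking by percent of the list left 0 members with sort-negative above sorted-positive and gave 1 (*Mesp1*) with GFP+ above all others, and ranking by pileup gave 3 with GFP+ above Tomato+. At the 17 distal regions with a peak in every library, GFP+ above Tomato+ held at 2 by fold, 4 by -log10 q or pileup and 1 by percent of the list, Tomato+ above GFP+ at 1 by fold and 2 by each other ranking, and sorted-positive above sort-negative at 2 by fold and 1 by each other ranking, in comparisons added after seeing the data.

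Leaving out each library in turn gave 2 to 2 promoters called in all remaining libraries, 122 to 128 distal regions and 5 to 7 in all remaining libraries. Regions of GFP+ and not Tomato+ numbered 0 to 12, and those of Tomato+ and not GFP+ 0 to 11. There were 1 to 2 promoters with GFP+ above Tomato+, 0 to 2 with Tomato+ above GFP+ and 0 to 1 with sorted-positive above sort-negative. The reverse of the last held at 0 to 0, and GFP+ above all others at 1 to 1. Without Tomato+ replicate 8, *Tcf15* joined *Pax1* with GFP+ above Tomato+, *Meox2* and *Ripply2* had Tomato+ above GFP+, and *Pax1* had sorted-positive above sort-negative. The replicate numbers are not shared between groups. No paired analysis was possible because no number occurs in more than 1 group. Counts grow or shrink with the limit by construction, and the cause of the other changes was not tested. An uncalled promoter is one not detected in that list and is not shown to be closed.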
